A study of Saccharomyces cerevisiae with 6 samples.

Results

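The 9 genes described here encode the lysine biosynthesis route of Saccharomyces cerevisiae, and they were taken by their systematic names from a table of 10239 loci, of which 6558 are protein-coding. They are LYS20 (YDL182W), LYS21 (YDL131W), LYS4 (YDR234W), LYS12 (YIL094C), LYS2 (YBR115C), LYS5 (YGL154C), LYS9 (YNR050C), LYS1 (YIR034C) and LYS14 (YDR034C), and each has 1 coding exon in the R64 annotation. Their RNA was measured in aerial cells, which form the part of a biofilm colony above the surface, and in root cells, which invade the agar. Both cell types came from the wild diploid strain BR-F, not genetically altered for this experiment, grown for 3 days at 28 °C on a polycarbonate membrane laid over medium with 3% glycerol, 1% yeast extract and 0.3% agar. A library holds the pooled RNA of a large number of colonies, and there were 3 aerial and 3 root libraries. Aerial cells were frozen as soon as the membrane had been lifted, whereas root cells were first freed from agar by vortexing and centrifugation and kept traces of it, so that cell type and harvest cannot be told apart.

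Yeasts and other fungi make lysine through 2-aminoadipate, a route that animals and plants do not have. The first steps condense 2-oxoglutarate with acetyl-CoA and rearrange and oxidise the product to 2-oxoadipate, much as the citric acid cycle handles citrate. An amino group is then added, the acid is reduced to a semialdehyde, and lysine is formed by way of saccharopine. Lysine inhibits the first enzyme, the semialdehyde intermediate activates the transcription factor Lys14, and the general amino acid regulator Gcn4 raises many amino acid genes when amino acids are scarce.

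The 6 libraries held between 13764726 and 17095539 counts. Levels are given as CPM, a count scaled by the depth of its library after TMM normalization, and each log2 fold change is root over aerial with its standard error (SE) from edgeR. A gene is called when the cell types differed at least 2-fold and the quasi-likelihood test of edgeR, adjusted over the 7971 loci that passed a filter on low counts, gave a p below 0.05. As a check of the labels, RGI2 and SIP18, picked as aerial genes, were at -2.65 and -2.24 on this scale, and ARG1 and ASN1, picked as root genes, were at 3.26 and 2.65, with no overlap between the cell types. These 4 genes were picked with earlier results of these data known, so they are no independent evidence.

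All 9 genes passed the filter, and 5 of them were called higher in root cells, namely LYS20, LYS21, LYS4, LYS9 and LYS1. Among all loci tested, 10.8% were called in that direction. LYS12 passed the adjusted threshold but missed the fold cutoff, which makes 6 of 9 genes by adjusted p alone beside 15.9% of all loci. LYS2, LYS5 and LYS14 did not pass. In 8 of the 9 genes every root library lay above every aerial library, a pattern that 25.1% of all loci had, and 0 of the 9 were called higher in aerial cells by edgeR or DESeq2 (0 also at an unadjusted p below 0.05), where 9.2% of all loci were called by edgeR. The median log2 fold change of the 9 genes was 1.00, against -0.03 for all loci tested. Summed over the 9 genes, the CPM was 1160, 1200 and 872 in aerial replicates 1, 2 and 3 and 2090, 2130 and 2030 in root replicates 1, 2 and 3. In such pooled samples fewer cells that express a gene and less RNA per cell cannot be told apart.

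**Figure D1:**
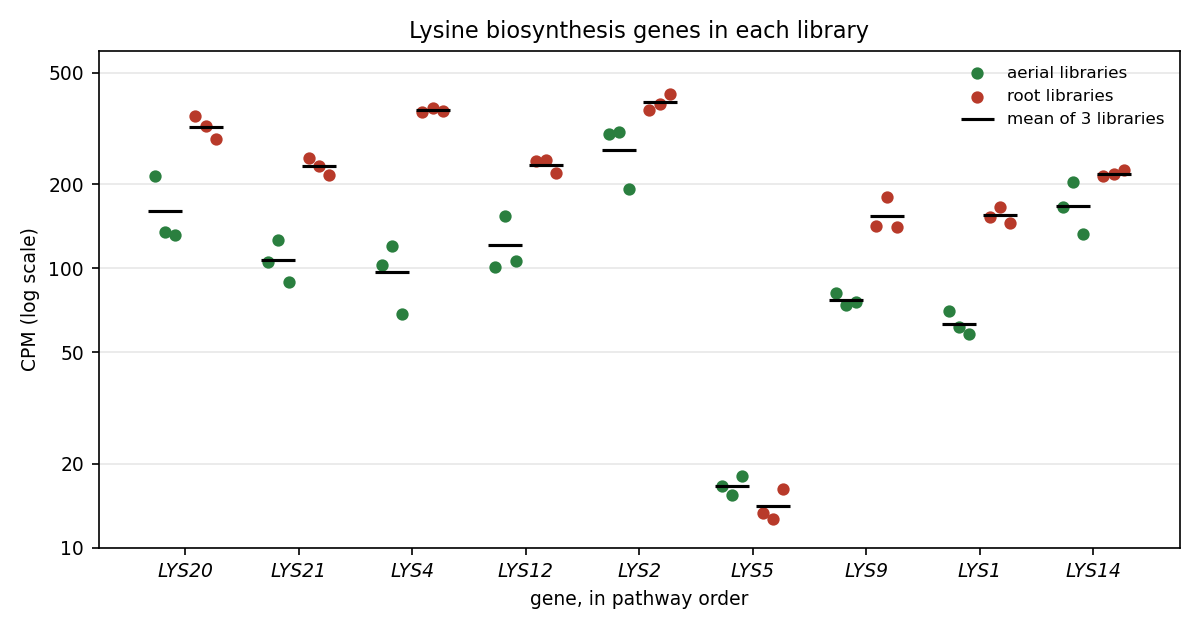
CPM on a log scale for the 9 genes in pathway order, with 1 point per library (aerial left, root right, replicates 1 to 3 from left to right) and a bar at the mean of 3 libraries. Only LYS5 has overlapping groups, and its level of 12.7 to 18.1 CPM lies below that of each other gene shown.

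LYS20 and LYS21 encode the isoenzymes of homocitrate synthase, which carries out the committed step. LYS20 lies on the plus strand at chrIV:133437-134723 and LYS21 on the same strand at chrIV:227393-228715 of R64. LYS20 gave 213, 135 and 131 CPM in aerial replicates 1, 2 and 3 and 350, 322 and 290 CPM in root replicates 1, 2 and 3. The groups did not overlap, but aerial replicate 1 stood above the other aerial libraries. The means were 160 ± 46.1 and 321 ± 30.0 CPM (SD, n = 3 each) with a log2 fold change of 1.01 (SE 0.24) and an edgeR adjusted p of 0.0125. LYS20 was called in only 3 of the 6 fits that left out 1 library, falling to 0.90 without aerial replicate 2 and to 0.88 without aerial replicate 3, and reaching an adjusted p of 0.0561 without root replicate 1.

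LYS21 gave 105, 126 and 89.1 CPM in the aerial libraries and 249, 232 and 215 CPM in the root libraries. All root values were clearly separated from the aerial ones, and aerial replicate 3 was the lowest. The log2 fold change was 1.12 (SE 0.19, edgeR adjusted p = 0.00366) between means of 107 ± 18.3 and 232 ± 17.3 CPM (SD, n = 3 each), and LYS21 was called in all 6 of the fits that left out 1 library. Without aerial replicate 3 its log2 fold change was 1.00, on the 2-fold cutoff.

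The coding sequences of LYS20 and LYS21 were identical at 1173 of 1281 aligned positions (91.6%), with a longest identical run of 278 bases, and 290 of the 1188 windows of 100 bases (the read length) in LYS20 also occur in LYS21. No other gene of the 9 has such a copy in R64. How reads that match both genes were counted (dropped, divided or counted for both) is not given in the sources used here, so the levels of LYS20 and LYS21 are uncertain where reads fall in shared stretches. The 90 bases below, from the R64 reference, lie near the end of the genes. Among stretches of that length aligned without a gap, they have the most differences. Stretches that cross a gap in the alignment were not compared. Capitals mark the 25 bases that differ between the isogenes.
LYS20, plus strand, chrIV:134562-134651, coding bases 1126 to 1215: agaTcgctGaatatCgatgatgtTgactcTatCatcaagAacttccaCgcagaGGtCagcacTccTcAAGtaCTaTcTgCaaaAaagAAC
LYS21, plus strand, chrIV:228560-228649, coding bases 1168 to 1257: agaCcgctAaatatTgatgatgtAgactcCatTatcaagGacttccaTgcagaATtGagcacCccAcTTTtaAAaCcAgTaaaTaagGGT

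The sum of both isogenes would be the same however shared reads were divided between them, but not if such reads were dropped or counted for both. It was 318, 261 and 220 CPM in the aerial libraries and 599, 554 and 505 CPM in the root libraries, without overlap. Homocitrate synthase transcripts were thus 2.08-fold higher in root cells by the means of 553 ± 47.2 and 266 ± 49.4 CPM (SD, n = 3 each).

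The balance between the isogenes was compared as the LYS20 share of the LYS20 plus LYS21 counts in each library. It was 66.9% (95% Wilson interval 65.4 to 68.4) in aerial replicate 1, 51.9% (50.5 to 53.3) in aerial replicate 2 and 59.5% (57.8 to 61.1) in aerial replicate 3. In root replicates 1, 2 and 3 it was 58.4% (57.4 to 59.4), 58.1% (57.1 to 59.1) and 57.5% (56.4 to 58.6). The intervals of the root libraries overlapped each other and that of aerial replicate 3, whereas those of aerial replicates 1 and 2 lay above and below all others. The mean share was 59.4 ± 7.50% in aerial and 58.0 ± 0.476% in root libraries (SD, n = 3 each), a difference of -1.40 points that the exact permutation test (two-sided) did not separate from replicate spread (p = 0.7, where 3 against 3 libraries cannot go below 0.1). Without aerial replicate 1 the difference was 2.34 points and without aerial replicate 2 it was -5.16 points, so its direction rests on single aerial libraries.

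LYS4 encodes homoaconitase, the mitochondrial enzyme that acts on the product of homocitrate dehydration, and lies at chrIV:931129-933210. It showed the highest fold change of the 9 genes. Its values were 103, 120 and 68.7 CPM in the aerial libraries and 363, 375 and 364 CPM in the root libraries. The root libraries were nearly equal, whereas aerial replicate 3 was lower than the other aerial libraries. The means of 97.2 ± 26.0 and 367 ± 6.87 CPM (SD, n = 3 each) correspond to a log2 fold change of 1.92 (SE 0.24), a 3.78-fold difference with an edgeR adjusted p of 0.00108. With 1 library left out it was between 1.72 and 2.10, called each time.

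LYS12 encodes homoisocitrate dehydrogenase, which forms 2-oxoadipate, and lies on the minus strand at chrIX:186517-187632. It gave 101, 154 and 106 CPM in the aerial libraries and 241, 243 and 220 CPM in the root libraries. Again no aerial library reached the root range, and aerial replicate 2 was the highest. The means of 121 ± 29.5 and 234 ± 12.7 CPM (SD, n = 3 each) gave a log2 fold change of 0.96 (SE 0.21, edgeR adjusted p = 0.0102), just under the fold cutoff. LYS12 was called when aerial replicate 2 was left out (1.18) or root replicate 3 was left out (1.06).

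The gap between the consecutive steps LYS4 and LYS12 can be read within each library, where scaling plays no part. The ratio of LYS4 counts to LYS12 counts was 1.02, 0.775 and 0.648 in the aerial libraries and 1.51, 1.55 and 1.66 in the root libraries. LYS4 had more counts than LYS12 in every root library and in aerial replicate 1, and fewer in aerial replicates 2 and 3. The mean ratios were 1.57 ± 0.0769 in root and 0.815 ± 0.190 in aerial libraries (SD, n = 3 each). LYS4 has the longer coding sequence (2082 against 1116 bases), so these counts do not rank the transcripts. By mean CPM per kb, LYS4 was below LYS12 in aerial (46.7 against 108) and in root cells (177 against 210). This ratio was picked after the values of both genes were seen and is given as a description.

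LYS2 encodes aminoadipate reductase, the large enzyme that reduces 2-aminoadipate to its semialdehyde, and lies on the minus strand at chrII:469748-473926. It gave 301, 306 and 192 CPM in the aerial libraries and 369, 388 and 420 CPM in the root libraries. The groups did not overlap, and aerial replicate 3 was far below the other aerial libraries. The log2 fold change of 0.56 (SE 0.23) did not pass (edgeR adjusted p = 0.0934) between means of 266 ± 64.3 and 392 ± 25.7 CPM (SD, n = 3 each). Without aerial replicate 2 its adjusted p was 0.0482 at a log2 fold change below the cutoff, and over the fits with 1 library left out it ranged up to 0.192.

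LYS5 encodes the phosphopantetheinyl transferase that attaches the cofactor Lys2 needs, and lies on the minus strand at chrVII:215278-216096. It gave 16.6, 15.5 and 18.1 CPM in the aerial libraries and 13.3, 12.7 and 16.2 CPM in the root libraries, from 199 to 289 counts per library. It was the only gene of the 9 whose cell types overlapped and the only one with a lower mean in root cells. The log2 fold change of -0.25 (SE 0.20) between 16.7 ± 1.28 and 14.1 ± 1.85 CPM (SD, n = 3 each) did not pass (edgeR adjusted p = 0.36), and it lay between -0.31 and -0.14 with 1 library left out. Lys2 and the enzyme that activates it thus had transcript differences of 0.56 and -0.25, neither past the threshold.

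LYS9 encodes the saccharopine dehydrogenase that forms saccharopine with glutamate, and lies on the minus strand at chrXIV:714048-715388. It gave 81.4, 73.7 and 75.9 CPM in the aerial libraries and 142, 180 and 140 CPM in the root libraries. Unlike most of the genes, its aerial libraries were close together, and root replicate 2 stood above the other root libraries. The log2 fold change was 1.00 (SE 0.18, edgeR adjusted p = 0.00404) between means of 77.0 ± 3.97 and 154 ± 22.7 CPM (SD, n = 3 each). The 2-fold cutoff falls on this value, and the call was lost without aerial replicate 2 (0.97), aerial replicate 3 (0.99) or root replicate 2 (0.92), while the adjusted p was at most 0.0199 with any 1 library left out.

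LYS1 encodes the saccharopine dehydrogenase that releases lysine in the last step, and lies on the minus strand at chrIX:419615-420736. It gave 70.3, 61.5 and 58.0 CPM in the aerial libraries and 153, 165 and 145 CPM in the root libraries. Both groups were tight and far apart. The log2 fold change was 1.29 (SE 0.17, edgeR adjusted p = 0.00127) between means of 63.3 ± 6.33 and 155 ± 10.2 CPM (SD, n = 3 each), and LYS1 was called in all 6 fits with 1 library left out, with an adjusted p of at most 0.00999. Read within each library, the ratio of LYS9 counts to LYS1 counts was 1.16, 1.20 and 1.31 in the aerial and 0.927, 1.09 and 0.964 in the root libraries. LYS9 had more counts than LYS1 in every aerial library but, among the root libraries, only in root replicate 2, a description also chosen after seeing the values. LYS9 has the longer coding sequence (1341 against 1122 bases), so these counts do not rank the transcripts either.

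**Figure D2:**
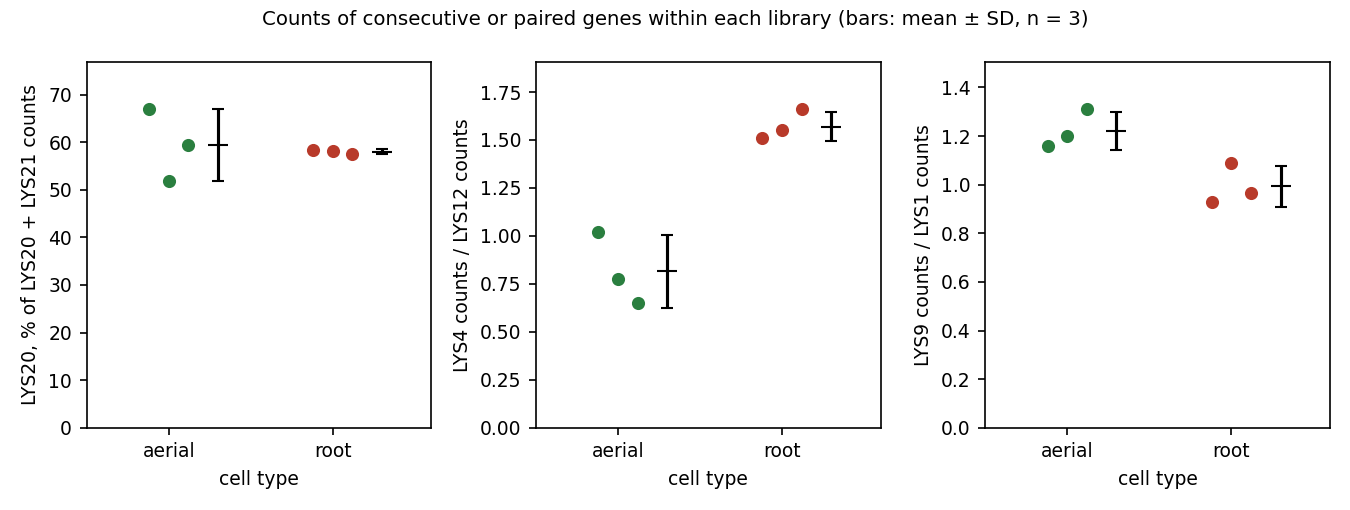
LYS20 as a percentage of LYS20 plus LYS21 counts (left), LYS4 counts divided by LYS12 counts (middle) and LYS9 counts divided by LYS1 counts (right), with 1 point per library and a bar at the mean ± SD (n = 3). The LYS20 share of the root libraries (57.5 to 58.4%) falls inside the aerial range. Neither ratio overlaps between the cell types, but both ratios were picked after the values were seen and are a description.

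LYS14 encodes the zinc cluster activator of the pathway, which responds to the semialdehyde intermediate, and lies on the minus strand at chrIV:509737-512109. It gave 165, 204 and 133 CPM in the aerial libraries and 214, 217 and 224 CPM in the root libraries. The highest aerial library came close to the root libraries without reaching them. The log2 fold change of 0.38 (SE 0.20) between 167 ± 35.3 and 218 ± 5.11 CPM (SD, n = 3 each) did not pass (edgeR adjusted p = 0.182). Without aerial replicate 2 it was 0.55 with an adjusted p of 0.032, and in no fit did it reach 2-fold.

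**Figure D3:**
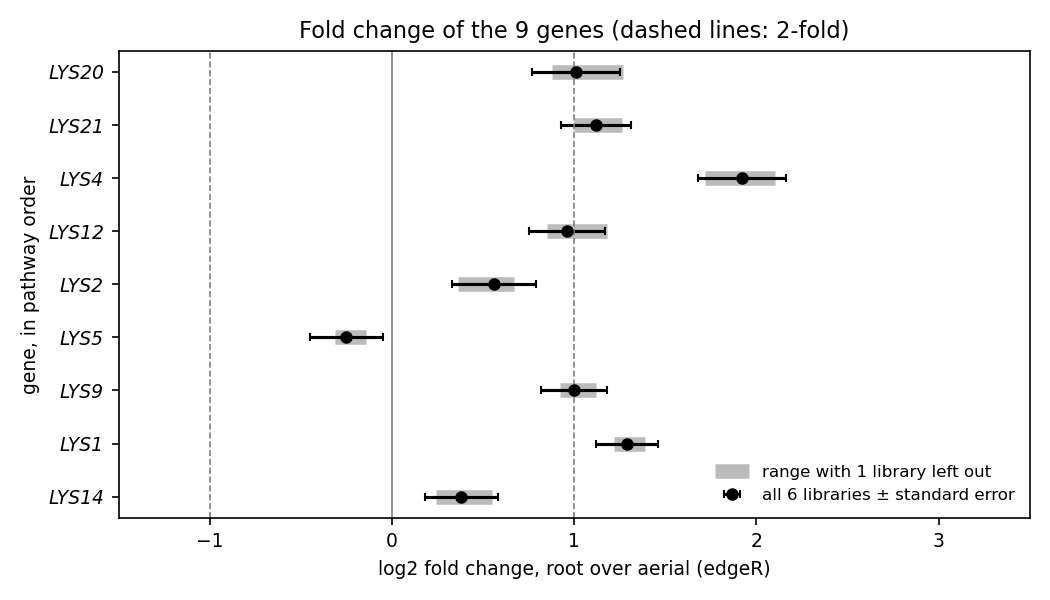
Log2 fold change, root over aerial, of the 9 genes in pathway order, with points and whiskers for the edgeR estimate ± SE from 6 libraries, grey bars for its range with 1 library left out, and dashed lines at 2-fold. LYS4 stands at 1.92, most other enzymes lie close to the 2-fold line, and LYS5 is at -0.25.

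Spread between libraries was larger above the agar than in it. The SD of log2 CPM was larger among aerial than among root libraries in 7 of the 9 genes, with medians of 0.307 and 0.0952, and LYS5 and LYS9 were the exceptions. The same held for 5072 of the 5873 protein-coding loci tested, with medians of 0.343 and 0.127. Aerial replicate 3 was the lowest aerial library in 6 of the 9 genes (LYS20, LYS21, LYS4, LYS2, LYS1 and LYS14). Left out, it left 3 genes called, LYS21, LYS4 and LYS1.

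Divided by coding length, the levels of different genes can be set side by side. The places of LYS20 and LYS21 carry the uncertainty of shared reads. In root cells the order by CPM per kb was LYS20 (249), LYS12 (210), LYS4 (177), LYS21 (175), LYS1 (138), LYS9 (115), LYS2 (93.8), LYS14 (91.8) and LYS5 (17.2). The pairs LYS4 and LYS21, LYS1 and LYS9, and LYS2 and LYS14 overlapped between libraries, while the other neighbours in this order did not. In aerial cells the order was LYS20 (124), LYS12 (108), LYS21 (80.6), LYS14 (70.5), LYS2 (63.8), LYS9 (57.4), LYS1 (56.4), LYS4 (46.7) and LYS5 (20.4), and all neighbours overlapped except LYS4 and LYS5. LYS4 moved from the eighth place to the third, and LYS20 and LYS5 were the first and the last in both cell types.

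Genes that act beside the pathway were looked at as a list of 13, all tested, with a median log2 fold change of 0.63. Of the 13, 4 were called higher in root cells, beside 10.8% of all loci, and 1 higher in aerial cells, beside 9.2% of all loci. ACO1, the aconitase of the citric acid cycle, gave 949, 770 and 559 CPM in the aerial and 1260, 1190 and 1080 CPM in the root libraries. These did not overlap, but the log2 fold change of 0.63 did not pass (SE 0.25, edgeR adjusted p = 0.0885).

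ODC1 and ODC2 encode the carriers that take 2-oxoadipate out of mitochondria. ODC2 gave 32.3, 33.7 and 25.1 CPM in the aerial and 122, 108 and 124 CPM in the root libraries, a log2 fold change of 1.96 (SE 0.18, edgeR adjusted p = 0.000476). The other carrier, ODC1, had 0.86 with an adjusted p of 0.0174 and was not called.

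The next step, the transfer of an amino group to 2-oxoadipate, can be carried out by the aromatic aminotransferases Aro8 and Aro9. ARO8 gave 117, 100 and 82.9 CPM in the aerial and 382, 372 and 360 CPM in the root libraries (log2 fold change 1.89, SE 0.20, edgeR adjusted p = 0.000699). ARO9 went the other way, with 416, 666 and 762 CPM in the aerial and 160, 122 and 195 CPM in the root libraries (-1.95, SE 0.29, edgeR adjusted p = 0.00195). The aminotransferase isogenes were therefore both called, in opposite directions, and both were called with each library left out.

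On the side of lysine use and uptake, KRS1, the cytosolic lysyl-tRNA synthetase, gave 222, 462 and 144 CPM in the aerial and 941, 900 and 903 CPM in the root libraries (1.73, SE 0.39, edgeR adjusted p = 0.0107). MSK1, its mitochondrial counterpart, was at -0.07 and did not pass. Of the basic amino acid permeases, CAN1 for arginine was called at 1.03 (adjusted p = 0.00721), though not without aerial replicate 3 (0.90). LYP1 for lysine gave 169, 121 and 135 CPM in the aerial and 231, 220 and 222 CPM in the root libraries, 0.66 with an adjusted p of 0.0277 and below 2-fold. The third permease gene, ALP1, was at -0.04 and did not pass.

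Among the regulators, GCN4 gave 1490, 1240 and 1100 CPM in the aerial and 1510, 1280 and 1090 CPM in the root libraries. Both cell types covered nearly the same range, with a log2 fold change of 0.02 (SE 0.25, edgeR adjusted p = 0.964). Gcn4 is known to be controlled mainly at translation, which these libraries do not measure. MKS1, a regulator of the retrograde pathway whose loss raises lysine synthesis, was at 0.17, and PPT2, a mitochondrial phosphopantetheinyl transferase, was at 0.55, neither past the threshold.

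Set beside other amino acid routes, 6 of 9 arginine genes were called higher in root cells (median 1.90, from ARG2 at 0.08 to ARG1 at 3.26), as were 9 of 11 branched-chain genes (median 1.93, from BAT2 at 0.37 to BAT1 at 2.62) and 6 of 7 histidine genes (median 1.49, from HIS2 at 0.81 to HIS1 at 2.28). The background of all loci called in that direction is the 10.8% given above. With 1 library left out, 8 to 10 branched-chain genes and 5 to 6 histidine genes were called, and the arginine count stayed at 6. The lysine median of 1.00 lay below these 3 medians, a difference that was not tested. As a contrast in direction, all 4 meiosis genes listed were called higher in aerial cells, where 9.2% of all loci were called, from SPO11 at -2.52 to IME1 at -1.40.

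**Figure D4:**
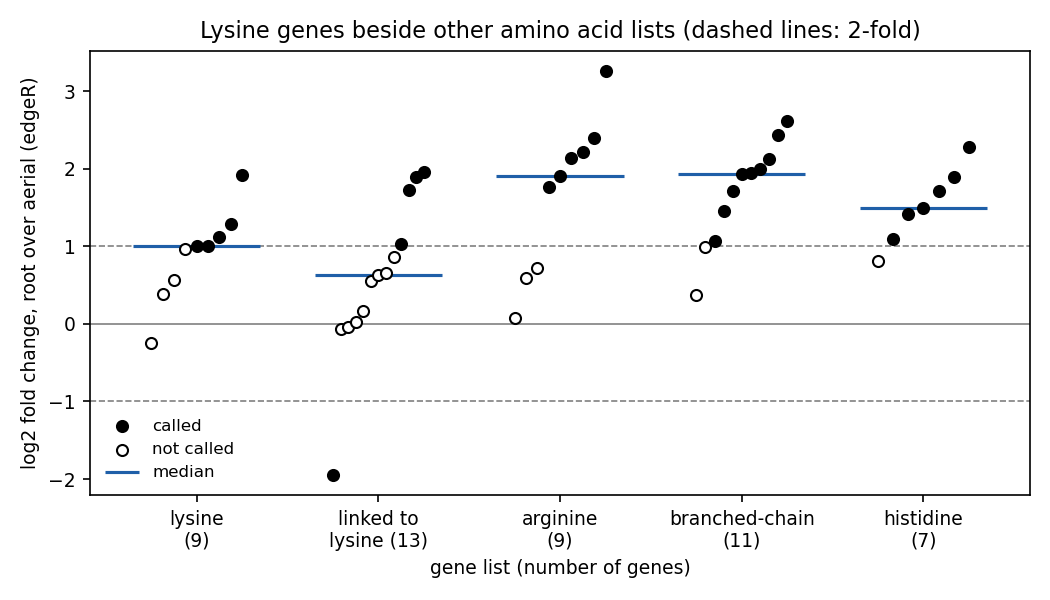
Log2 fold change, root over aerial, of each gene in 5 lists, with filled points for called genes, open points for genes not called, a blue bar at each list's median and dashed lines at 2-fold. The lysine median is 1.00 and those of arginine, branched-chain and histidine genes are 1.90, 1.93 and 1.49, while ARO9 at -1.95 is the point far below 0.

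Over the 6 libraries, the mean profile of the 7 enzyme genes, LYS20, LYS21, LYS4, LYS12, LYS2, LYS9 and LYS1, as centred log2 CPM was -0.46, -0.44 and -0.81 in the aerial and 0.58, 0.63 and 0.50 in the root libraries. LYS21 was nearest to it (Euclidean distance 0.206), followed by LYS1 (0.283) and LYS9 (0.411), and LYS4 was the farthest of the 7 (1.05). LYS14 was at 0.937 and LYS5 at 1.80. Each of the 7 enzyme genes is itself part of the mean, so their distances are not on a par with those of genes outside it. Of all other protein-coding loci tested, the 5 nearest profiles were those of GDA1 (0.178), a Golgi guanosine diphosphatase, TCP1 (0.208), a chaperonin subunit, PAN6 (0.218), a pantothenate synthase, TIF1 (0.218), a copy of the translation initiation factor eIF4A, and EFM1 (0.227), a methyltransferase of elongation factor 1A. Their Pearson r with the mean profile lay between 0.987 and 0.994, a description over 6 libraries in which much of the variation is the difference between cell types.

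The 9 genes lie on 5 chromosomes and 4 of them on chromosome IV. Their 18 chromosomal neighbours, the closest on each side, were all tested, and 0 were called higher in root cells by edgeR or DESeq2 (1 at an unadjusted p below 0.05), beside 10.8% of all loci. In aerial cells 1 was called higher, beside 9.2% of all loci. It was TKL2, a transketolase gene 465 bases upstream of LYS2, which was higher in aerial cells with 2290, 851 and 1480 CPM against 569, 643 and 609 CPM in root cells (log2 fold change -1.34, SE 0.35, edgeR adjusted p = 0.0186). TKL2 was called in only 2 of the 6 fits that left out 1 library. LYS2 itself was at 0.56, so that neighbours on the same strand had opposite signs. No lncRNA of the table is named after any of the 9 genes. Only names were searched, so lncRNAs that overlap these genes under other names were not looked for.

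The 500 bases before each start codon were searched on both strands for the core TGACTC bound by Gcn4 and for TCCNNNGGA, a looser form of the core bound by Lys14 that reads the same on both strands. TGACTC occurred before 4 of the 9 genes and in 12.7% of the 6000 such windows in R64, and TCCNNNGGA before 5 of the 9 and in 5.9% of windows. No match overlapped another. LYS1, LYS12 and LYS14 held both motifs, LYS2 only the Gcn4 core, LYS21 and LYS9 only the Lys14 core, and LYS20, LYS4 and LYS5 neither. The R64 sequences of the genes with both motifs are shown with that of LYS21, whose isogene LYS20 had no match. They run 5′ to 3′ on the strand of the gene, with the motif in capitals (GAGTCA is the Gcn4 core on the other strand).
LYS1, minus strand, chrIX:420970-420995, Gcn4 core from 249 bases before the start codon: ctaagtcgatGAGTCAaaaaagactc
LYS1, minus strand, chrIX:420914-420942, Lys14 core from 196 bases before: atttttttttTCCAGCGGAatttggaatt
LYS1, minus strand, chrIX:420855-420880, Gcn4 core from 134 bases before: cagcgacaaaGAGTCAtaaagtcatc
LYS12, minus strand, chrIX:187796-187824, Lys14 core from 182 bases before: ttcactttttTCCCGTGGAaaaatattct
LYS12, minus strand, chrIX:187775-187800, Gcn4 core from 158 bases before: attcttaagaTGACTCtaattagagg
LYS14, minus strand, chrIV:512344-512369, Gcn4 core from 250 bases before: ggacgcgacgTGACTCaattggaaga
LYS14, minus strand, chrIV:512307-512335, Lys14 core from 216 bases before: tggaaaaattTCCTCAGGAatttcaaaat
LYS21, plus strand, chrIV:227053-227081, Lys14 core from 330 bases before: gagttgaaatTCCGCTGGAaatcgtcacc

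Called and uncalled genes were found both with and without these letters. LYS4, with the highest log2 fold change of 1.92, had neither motif, as had LYS20 at 1.01 and LYS5 at -0.25, whereas LYS14 at 0.38 had both. LYS1 at 1.29 held the most matches, 2 of the Gcn4 core and 1 of the Lys14 core. A match is a description of the letters in the reference strain and not a bound site, and the sequence of BR-F itself was not used here.

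**Figure D5:**
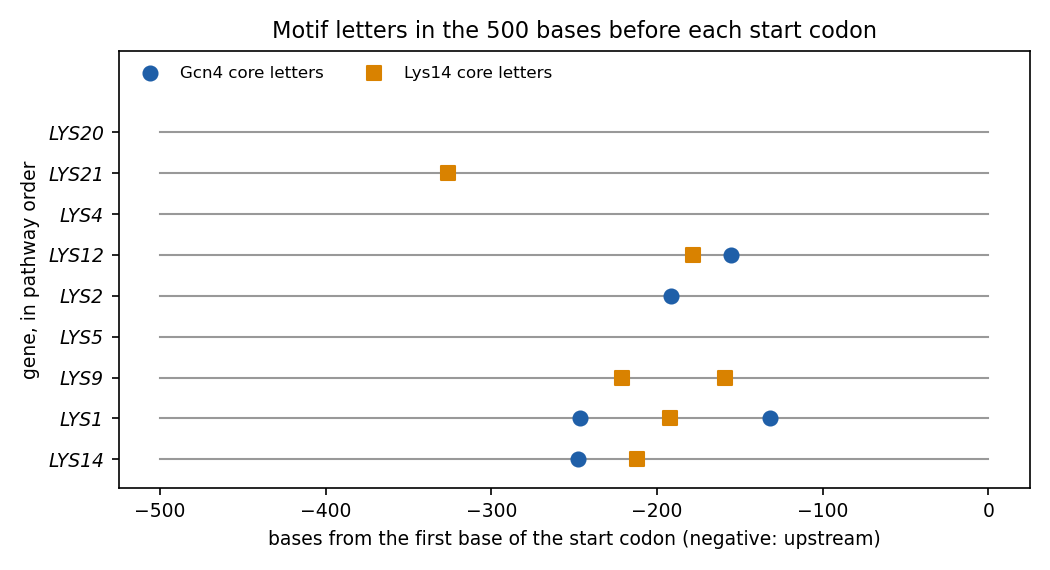
Position of the Gcn4 core (circles) and Lys14 core (squares) in the 500 bases before the start codon of the 9 genes, in bases from the start codon. Matches lie between 129 and 330 bases before the start codon, and the lines of LYS20, LYS4 and LYS5 carry none.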

How the data were processed

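RNA from 3 aerial and 3 root samples of BR-F colony biofilms was depleted of ribosomal RNA and sequenced as stranded, paired-end libraries. The authors aligned reads to R64 (SacCer3) with TopHat 2.0.14 and used featureCounts for strand-specific counting, and what they deposited are raw counts for each locus and library, without any normalization or filter. All value columns were used, so 0 were left out, and 1 row naming no locus (2 to 6 counts per library) was dropped. The names of 24 lncRNAs occur more than once in the table.

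Counts were tested in R 4.3.3 with edgeR 4.0.16 (filterByExpr, TMM factors of 0.871 to 1.09, quasi-likelihood F test, common dispersion 0.0574), and p-values were adjusted by the Benjamini-Hochberg method across the tested loci. A prior count of 2 was used only for the log2 CPM behind the nearest profiles and the correlations between same-numbered libraries. The SE is the log2 fold change divided by the square root of F. DESeq2 1.42.0 was an alternative, as were DESeq2-type size factors, upper quartile factors, library sizes alone, no filter on low counts, at least 10 counts in every library, no fold cutoff, the replicate number as a block and each library left out. The isogene share was compared by an exact permutation test. Sequences were read from R64 with Biopython 1.88 and copies were found with BLAST 2.17.0, and other steps used Python 3.11.15, numpy 2.4.6, pandas 2.3.3 and matplotlib 3.10.9. The code was tested on simulated data drawn with the common dispersion, in which 200 loci were set to change. Of 96 loci changed 2-fold there, 51 passed the adjusted threshold and 45 were called, and of 99 changed 4-fold, 99 were called. Of the unchanged loci, 5 were called. A gene changed about 2-fold can therefore go uncalled. How often cannot be read from the simulation, because far more loci (2515) passed the adjusted threshold in the real data. Wilson intervals cover counting error only, and no molecular identifiers are described.

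The members and lists were chosen with earlier results of these data known. Genes named are the 9 members, the 13 genes acting beside the pathway, the lowest and highest of each other list, called chromosomal neighbours and the 5 nearest profiles. The motif search and the isogene alignment were chosen after the deposited counts had been seen. A gene of the list acting beside the pathway is not reported here and was left out of its counts.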

Additional observations from a re-analysis of the deposited data

How the results depend on the processing

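Of the 9 genes, 5 were called in root cells with the main settings, with DESeq2, with DESeq2-type size factors and with at least 10 counts in every library. The count was 3 with upper quartile factors, 4 with library sizes alone or without the filter on low counts, 6 without a fold cutoff, and 3 to 6 when 1 library was left out. LYS21, LYS4 and LYS1 were called in every one of these settings, and no gene of the 9 changed sign in any. The calls lost were those of LYS20 and LYS9, whose log2 fold changes of 1.01 and 1.00 lie at the fold cutoff. The loci called in all, 1593, became 2515 without the fold cutoff and 1085 to 1909 with 1 library left out. The LYS20 share difference ran from -5.16 to 2.34 points with 1 library left out (2.34 without aerial replicate 1) and was -1.38 points per coding length. With the replicate number as a block, 4 of the 9 genes were called (LYS9 was at 0.99), 1677 loci were called, and in the replicate block permutation the share difference of -1.40 points had an exact p of 0.75. Whether same-numbered libraries are paired is not stated in the sources used here. Same-numbered aerial and root libraries had correlations of -0.142, 0.14 and -0.044 in their deviations from the group means. Not every library correlated best with its own number, but such correlations cannot decide whether the libraries are paired. LYS2 and LYS14 passed the adjusted threshold in 1 fit each, without aerial replicate 2 (adjusted p = 0.0482 and 0.032, edgeR), and were called in none.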
